A study of Mus musculus with 8 samples.

Results

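The CC chemokines Ccl2, Ccl3, Ccl4, Ccl6, Ccl7, Ccl8, Ccl9, Ccl12 and Ccl24 and the receptor Ccr2 were followed across a mouse model of cardiac pressure overload. These 10 genes were taken by symbol from the 32285 genes of the deposited matrices, and each had at least 1 UMI (unique molecular identifier, a counted transcript) in every library and in every section. All hearts came from wild type male C57BL/6J mice, given as 8 weeks old, that had a sham operation or transverse aortic constriction (TAC), in which a ligature narrows the aorta. The study's methods give that age for the mice operated on, so age at harvest and time after TAC cannot be told apart. No time after the operation is labelled for the sham samples. For sham and for 2, 4 and 6 weeks after TAC (TAC-2w, TAC-4w and TAC-6w) there was 1 single-cell library and 1 spatial transcriptomics section. With 1 sample per group there is no replicate and no test: every interval is a 95% counting interval, and differences between animals or preparations are not covered by it. Where 4 values follow each other, the first is sham and the rest are the TAC samples by week.

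CC chemokines are small secreted proteins that bind receptors on leukocytes and guide their movement into tissue. Ccr2 is the receptor by which classical monocytes leave the blood and enter the heart, and Ccl2, Ccl7, Ccl8 and Ccl12, the monocyte chemoattractant group, are its ligands or close relatives of them. Ccl3 and Ccl4 attract many kinds of leukocyte, Ccl6 and Ccl9 act through Ccr1, and Ccl24 through the eosinophil receptor Ccr3. Resident cardiac macrophages, which carry Lyve1, Folr2 and Timd4 and mostly lack Ccr2, are a known source of several of these ligands.

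Most of the ligand genes lie in a pair of tandem groups on mouse chromosome 11. On GRCm38.p6, the assembly of mm10, Ccl2 (11:82035577-82037452), Ccl7 (11:82045712-82047525), Ccl12 (11:82101845-82103399) and Ccl8 (11:82115185-82116799) form the first group. Ccl9 (11:83572917-83578636), Ccl6 (11:83587886-83593087), Ccl3 (11:83647843-83649378) and Ccl4 (11:83648624-83664683) form the second. Ccl24 is on chromosome 5 (5:135569935-135573123) and Ccr2 on chromosome 9 (9:124101918-124109140).

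RefSeq promoters (GRCm38.p6) were given for 6 of the 10 genes: Ccl3, Ccl6, Ccl8, Ccl9, Ccl12 and Ccr2. The 150 bases before the start of Ccl8 and Ccl12 are printed because these neighbours were the members that lay past 2-fold in opposite directions in cells and in tissue at TAC-4w. The window of Ccr2 lies inside the span given above for that gene and is not printed. Each is written 5′ to 3′ on the strand of its gene, and capitals mark the TATA box TATAAAA.
Ccl8 (+ strand, chr11:82115035-82115184): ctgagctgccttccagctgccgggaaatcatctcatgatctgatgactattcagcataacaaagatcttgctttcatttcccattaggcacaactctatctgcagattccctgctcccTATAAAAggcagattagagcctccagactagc
Ccl12 (+ strand, chr11:82101695-82101844): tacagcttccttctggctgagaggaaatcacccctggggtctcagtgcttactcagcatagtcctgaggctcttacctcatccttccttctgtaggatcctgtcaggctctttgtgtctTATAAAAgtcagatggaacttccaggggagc
TATAAAA on the gene strand was found in 3 of the 6 windows, those of Ccl8 (32 to 26 bases before the start), Ccl12 (31 to 25) and Ccl9 (92 to 86), and in 1.90% of the 32851 RefSeq windows of the same length. In a global alignment, the windows of Ccl8 and Ccl12 were identical at 100 positions, 66.7% of 150, against 52.0% to 60.7% in the other pairs of these promoters.

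The libraries held 28793316 to 86671674 UMIs, and 5399 to 7965 cells per library were kept after filters on genes, UMIs and mitochondrial share. The sections held 25996378 to 48754396 UMIs over 1228 to 2193 spots, each spot being a small tissue area with several cells. Pairs of libraries shared 9 to 30 barcodes. The TAC-4w library stood apart from the others in its cell makeup: B cell-like cells were 37.2% of it and neutrophil-like cells 19.2%, whereas fibroblast-like cells were 6.60%, against 51.3% to 56.3% in the other libraries. Platelet-like cells were 8.45% of it, against 0.159% to 0.665% in the other libraries. Batch labels split the series so that, among libraries, TAC-6w shared its batch with sham and, among sections, TAC-2w did. All other comparisons with sham cannot be told apart from batch, and their results have no within-batch value.

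Macrophage-like cells, the clusters named from macrophage and monocyte markers, numbered 1593 in sham, 1606 in TAC-2w, 362 in TAC-4w and 923 in TAC-6w. They were re-clustered without the chemokine genes and divided into resident macrophage-like (605, 756, 7 and 118 cells in the same order), other macrophage-like (914, 755, 142 and 762), classical monocyte-like (42, 42, 163 and 25) and nonclassical monocyte-like cells (32, 53, 50 and 18). The resident markers summed to 3797 CPM (UMIs of a gene per 1000000 UMIs of the sum) in sham macrophage-like cells and to 422 CPM in TAC-4w, with none of the 6 markers at 0. Sub-clusters with at least 2 listed markers of another cell type among their 10 leading genes, and more of these than of macrophage markers (79, 58, 41 and 21 cells, or 0.389% to 0.992% of a library), were kept apart as mixed. That rule did not catch one sub-cluster led by the mast cell genes Mcpt4, Cma1 and Tpsb2. It was named from the MHC class II high macrophage markers, with all 6 detected. Its TAC-6w cells had 1639 CPM of Ccl6 and 756 CPM of Ccl9. The sub-cluster drew 590 of its 718 cells from TAC-6w, so that the other macrophage-like cells of TAC-6w were mostly these (590 of 762). Leaving it out, an alternative chosen after seeing the data, changed no count of members past 2-fold in macrophage-like cells. At TAC-6w it moved Ccl8 in macrophage-like cells and Ccr2 in other macrophage-like cells by more than 1.5-fold. Those values are given with and without it, as are Ccl3 and Ccl4 in macrophage-like cells. The other macrophage-like cells also differed in makeup between sham and TAC-4w. The sub-cluster led by Mucl1 and Ifit2 was 417 of 914 cells in sham and 92 of 142 in TAC-4w. The one led by Tnip3, Il1b and Nlrp3 was 255 cells in sham and 8 in TAC-4w. Ratios within the other macrophage-like cells therefore do not hold the mix of cells fixed.

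The members did not share a single source. Macrophage-like cells had the highest CPM of all named cell types for Ccl2, Ccl7, Ccl8, Ccl9, Ccl12 and Ccl24 in all 4 libraries, dividing and mixed cells aside. Natural killer (NK) cell-like cells led for Ccl4 in every library and for Ccl3 in sham and TAC-2w, neutrophil-like cells led for Ccl6 in TAC-4w. Among these types, with monocytes counted as macrophage-like, the highest Ccr2 level was in NK cell-like cells in sham and TAC-2w. It was in macrophage-like cells in TAC-4w and in T cell-like cells in TAC-6w. Classical monocyte-like cells taken alone were higher in every library, at 526, 612, 992 and 279 CPM. The NK cell-like cells numbered 154, 33, 341 and 29, so that their TAC-2w and TAC-6w levels came from few cells.

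**Figure D1:**
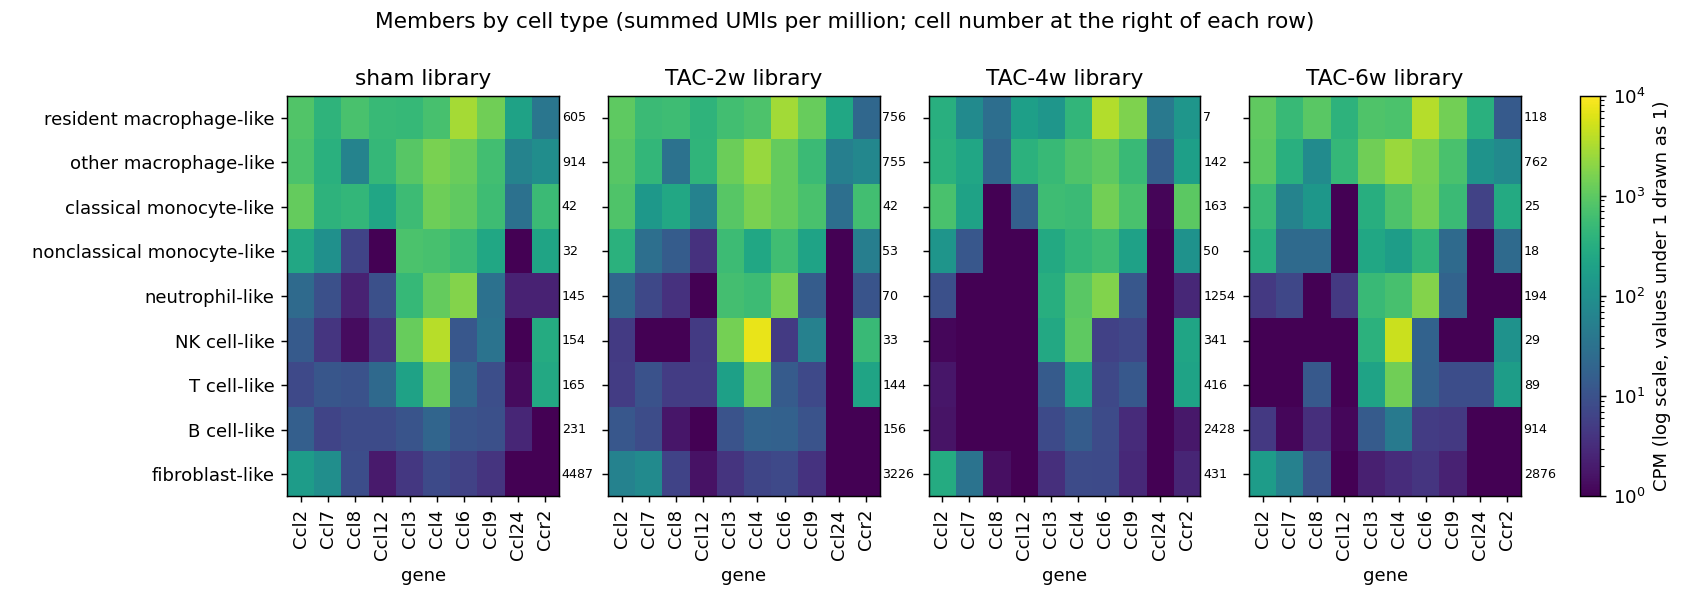
Summed CPM of each member (columns) in 9 cell types (rows) of the 4 libraries, on a log colour scale, with the number of cells at the right. Ccl6 is high in resident macrophage-like and neutrophil-like rows, Ccl4 in the NK cell-like row, and the Ccl8 cell of the classical monocyte-like row is empty in TAC-4w.

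Ccl8, a ligand of the monocyte chemoattractant group, was concentrated in resident macrophage-like cells. Its level there was 699 CPM in sham (3629 UMIs), 581 CPM in TAC-2w (4615 UMIs), 27.8 CPM in TAC-4w (2 UMIs in 7 cells) and 943 CPM in TAC-6w (629 UMIs). In other macrophage-like cells it was 61.8, 32.1, 20.2 and 84.7 CPM in the same order. The resident level was therefore many times that of the other macrophage-like cells in sham, TAC-2w and TAC-6w, and resident macrophage-like cells supplied 69.1%, 84.4% and 58.2% of all Ccl8 UMIs of those libraries.

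The resident cells were not uniform in Ccl8. In the resident sub-cluster that Ccl8 itself led with Cd209f, Folr2 and Fcna, although it was not a clustering gene, Ccl8 was 1199 CPM in sham, 1147 CPM in TAC-2w and 908 CPM in TAC-6w. The sub-cluster led by Retnla and Lyve1 had 236, 251 and 998 CPM. By summed level the sub-clusters thus differed in sham and TAC-2w but were close in TAC-6w. By share of cells with a Ccl8 UMI they differed in all of these libraries. It was 49.8%, 52.8% and 61.4% (of 70 cells) in the Ccl8-led sub-cluster. In the one led by Retnla and Lyve1 it was 24.8%, 32.1% and 39.6% (of 48 cells). Ccl8 was also uneven between cells of a kind: in sham, 221 of 605 resident macrophage-like cells had a UMI and the 10 highest held 33.1% of the Ccl8 UMIs.

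Across all macrophage-like cells, Ccl8 was 352 CPM (interval 341 to 363) in sham, 336 CPM (326 to 345) in TAC-2w, 6.99 CPM (4.32 to 10.7) in TAC-4w and 249 CPM (232 to 266) in TAC-6w. TAC-4w was the low library, and the intervals of the others lay far above it. The ratio to sham was 0.0198 (0.0123 to 0.0304) at TAC-4w, 0.953 (0.915 to 0.994) at TAC-2w and 0.706 (0.656 to 0.759) at TAC-6w. Without the sub-cluster led by mast cell genes, TAC-6w was at 461 CPM (429 to 496), on the other side of sham, with a ratio of 1.29 (1.19 to 1.40). That left 333 of its 923 macrophage-like cells. The 118 resident macrophage-like cells were all kept and so made up a larger part of them. The TAC-4w ratio was 0.00171 with the chemokine genes kept for clustering and 0.00176 with RPCA integration, each on 2 UMIs, and 0.00453 with a mitochondrial limit of 5%, on 4 UMIs. Only 31 Ccl8 UMIs were counted in all cells kept of TAC-4w, 21 of them in 7 macrophage-like cells.

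The share of macrophage-like cells with a Ccl8 UMI was 19.7% in sham, 22.7% in TAC-2w, 1.93% in TAC-4w and 13.5% in TAC-6w. Thinned to 1000 UMIs per cell, it was 8.60%, 8.86%, 0.847% and 7.66%. In B cell-like cells, which should lack Ccl8, the unthinned share was 2.16%, 0.641%, 0% (0 of 2428 cells, upper limit 0.152%) and 0.547%, at median depths of 3068, 3632.5, 4349.5 and 1901 UMIs against 7206, 8751, 8118 and 3635 in macrophage-like cells. The TAC-4w macrophage-like share was thus close to the background share of sham and above that of its own library.

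The low level of Ccl8 at TAC-4w went with a different mix of cells. Resident macrophage-like cells were 605 of the 1593 macrophage-like cells in sham and 7 of the 362 in TAC-4w, where 163 were classical monocyte-like. Without the monocyte-like clusters the TAC-4w to sham ratio was 0.0587, above the value with them. Within resident macrophage-like cells it was 0.0398 (0.00481 to 0.144) on 2 UMIs. Within other macrophage-like cells, whose makeup also differed, it was 0.327 (0.195 to 0.518) on 19 UMIs, nearer to 1 than in all macrophage-like cells. Classical monocyte-like cells of TAC-4w had 0 Ccl8 UMIs, which allows up to 1.71 CPM, against 449 CPM in sham, so TAC-4w was at least 262-fold lower there, but the sham value came from 3 of 42 cells.

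The tissue section went the other way. Ccl8 was 10.1 CPM (8.93 to 11.4) in the sham section, 2.79 CPM (2.34 to 3.30) in TAC-2w, 21.8 CPM (20.2 to 23.5) in TAC-4w and 5.86 CPM (5.20 to 6.58) in TAC-6w. TAC-4w was thus the highest section, and the 4 intervals did not overlap. Spots with a Ccl8 UMI were 10.7% of the sham section, 5.48% of TAC-2w, 29.2% of TAC-4w and 9.17% of TAC-6w. The TAC-4w to sham ratio was 2.15 (1.87 to 2.49), 1.87 with TMM scaling, 1.80 with mitochondrial and rRNA-like features out of the total, and 1.08 per UMI of the macrophage genes C1qa, C1qb and C1qc. Those genes, which encode subunits of complement C1q, summed to 207 CPM in the sham section and 414 CPM in TAC-4w, and the resident macrophage markers to 85.01 and 116 CPM, with none at 0. In a section, as in any bulk sum, more cells of a type and more RNA per cell cannot be told apart.

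**Figure D2:**
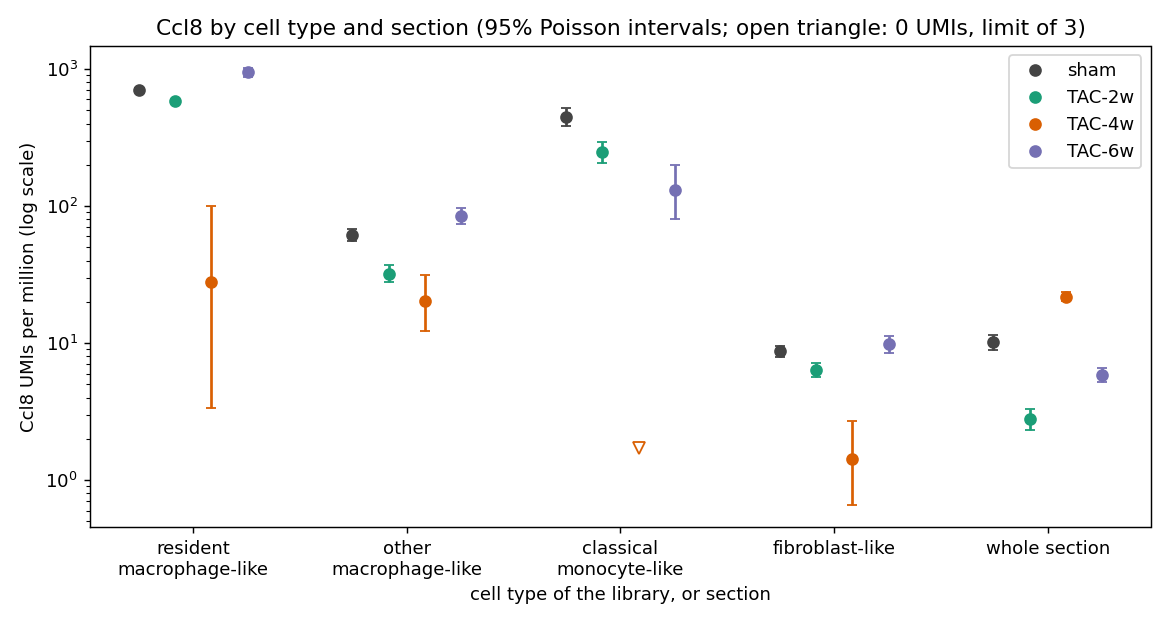
Ccl8 in CPM (log axis) in 4 cell types of each library and in each whole section, with 95% Poisson intervals; an open triangle marks 0 UMIs at the limit of 3. TAC-4w is the lowest of the libraries in each cell type, at 27.8 CPM in resident macrophage-like cells, and the highest of the sections, at 21.8 CPM.

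Within every section Ccl8 was higher in spots rich in macrophage genes. In the top 10% of spots by the summed macrophage markers C1qa, C1qb, C1qc, Csf1r, Cd68 and Adgre1, it was 27.1 CPM in sham, 10.2 in TAC-2w, 62.4 in TAC-4w and 18.4 in TAC-6w. In all other spots it was 7.79, 1.92, 16.5 and 4.67 CPM. The ratios were 3.48 (2.66 to 4.53), 5.30 (3.68 to 7.58), 3.77 (3.21 to 4.43) and 3.94 (2.99 to 5.14). The TAC-4w section had more Ccl8 than sham both in the macrophage-rich spots and outside them.

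**Figure D3:**
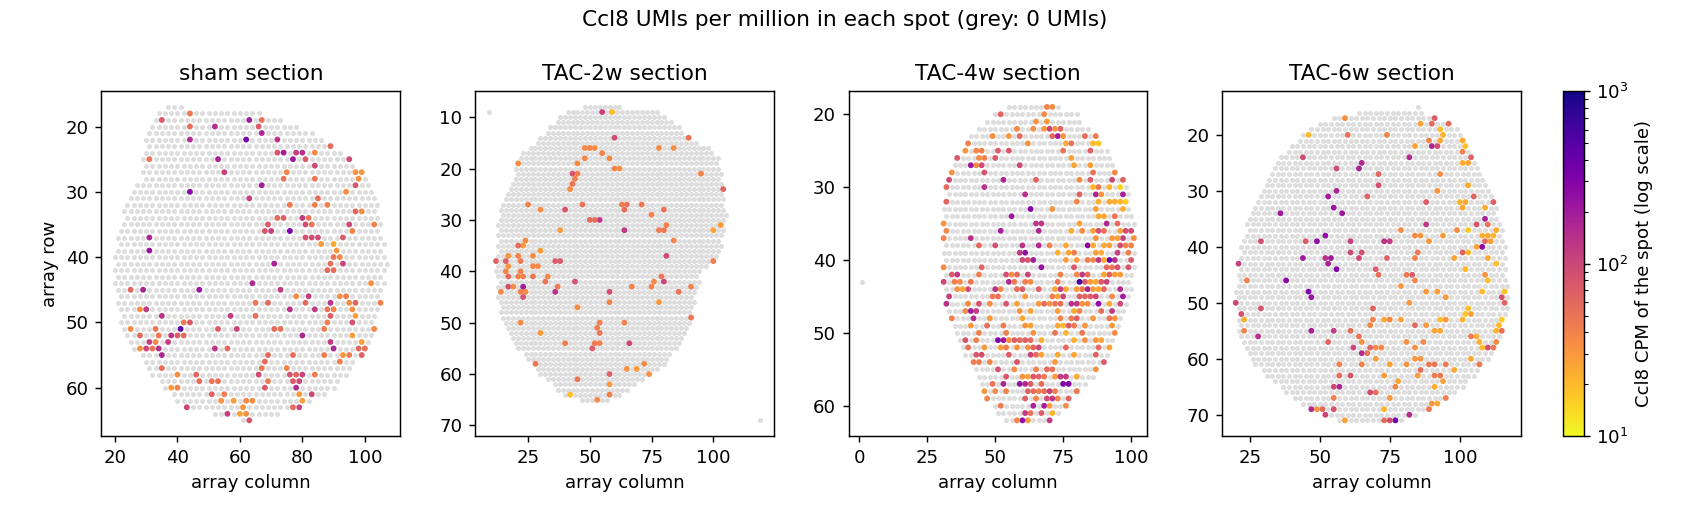
Ccl8 in CPM of each spot (log colour scale, grey for 0 UMIs) at its array column and row in the 4 sections. Spots with a Ccl8 UMI are most frequent in TAC-4w, 29.2% against 5.48% to 10.7% elsewhere.

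Ccl12, a mouse chemoattractant of monocytes and the chromosomal neighbour of Ccl8, was 460 CPM in sham macrophage-like cells, 390 in TAC-2w, 128 in TAC-4w and 415 in TAC-6w. Only TAC-4w was far from the rest, at a ratio to sham of 0.279 (0.251 to 0.309). Unlike Ccl8, Ccl12 did not distinguish resident from other macrophage-like cells, with 491 and 459 CPM in sham. In other macrophage-like cells TAC-4w had 367 CPM, a ratio of 0.799 (0.713 to 0.894), while classical monocyte-like cells of TAC-4w had 16.0 CPM. In the sections Ccl12 was 1.54, 0.615, 5.10 and 2.61 CPM in the same order. TAC-4w was the highest at a ratio of 3.32 (2.33 to 4.81), or 1.66 per C1q UMI, which is the opposite direction to the macrophage-like cells. Per 1000 C1q UMIs, the macrophage-like cells had 26.8 Ccl12 UMIs in sham and 22.5 in TAC-4w, within 2-fold.

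Ccl2, the main Ccr2 ligand, and Ccl7, another of them, came from macrophage-like cells and from fibroblast-like cells. Ccl2 in macrophage-like cells was 787 CPM in sham, 942 in TAC-2w, 552 in TAC-4w and 961 in TAC-6w. Fibroblast-like cells had 161, 58.4, 288 and 161 CPM, a lower level per UMI, but supplied 39.3%, 12.9%, 47.6% and 44.6% of the Ccl2 UMIs of a library. The TAC-4w fibroblast level and share rested on a single cell, which held 1320 of 1809 UMIs, and 17 of 431 fibroblast-like cells had any. The TAC-2w to sham ratio in fibroblast-like cells was 0.363 (0.346 to 0.380), an interval that leaves out unevenness between cells. In the cluster led by Cxcl14, Scara5 and Pi16, Ccl2 was 185 CPM in sham and 62.97 CPM in TAC-2w. The share of its cells with a Ccl2 UMI differed less, at 17.98% and 13.97%. At TAC-6w that cluster had 179 CPM, with a Ccl2 UMI in 8.98% of its cells. In the cluster led by Wif1 and Chad, Ccl2 was 63.5 CPM in sham and 48.96 CPM in TAC-2w, within 2-fold.

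Ccl7 was 369, 468, 194 and 347 CPM in macrophage-like cells. In fibroblast-like cells it was 94.4, 82.9, 33.8 and 57.2 CPM, and these cells held 46.6% of the Ccl7 UMIs in sham and 25.7% in TAC-4w. Within the fibroblast-like cells it was concentrated in the cluster led by Cxcl14, Scara5 and Pi16, with 114 CPM in sham, against 11.9 CPM in the cluster led by Wif1 and Chad. The cluster led by Gdf10 and Comp, with 13.7 CPM in sham and 1.29 CPM in TAC-4w, made up 208 of the 431 fibroblast-like cells of TAC-4w but 80 of 4487 in sham, so that the fibroblast-like class had another makeup there. The Cxcl14 cluster of TAC-4w had 92.8 CPM, on 205 UMIs. There 6.92% of its 159 cells had a Ccl7 UMI, against 16.8% of 3609 in sham.

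In the sections Ccl2 was 2.54, 0.861, 5.29 and 1.59 CPM and Ccl7 was 1.81, 0.492, 3.63 and 0.870 CPM. Both were highest in TAC-4w, at 2.08 and 2.01 times sham by total UMIs, and at 1.04 and 1.01 times sham per C1q UMI. Both were lowest in TAC-2w, the section of the same batch label as sham, where Ccl2 was 0.339 (0.225 to 0.507) of the sham level and Ccl7, on 24 and 47 UMIs, 0.272 (0.159 to 0.454). Ccl8 had the same order of sections, with a TAC-2w ratio of 0.276 (0.222 to 0.340).

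Ccl3 and Ccl4, inflammatory chemokines that many activated leukocytes make, came from lymphoid and myeloid cells. Ccl4 in NK cell-like cells was 3702 CPM in sham, 7358 in TAC-2w, 1031 in TAC-4w and 4715 in TAC-6w. Macrophage-like cells had 1145, 1432, 603 and 2034 CPM, and T cell-like cells 1182, 1190, 192 and 1357 CPM. TAC-4w was the lowest library in each of these cell types. In neutrophil-like cells Ccl4 was 1151 CPM in sham, 549 in TAC-2w and 946 in TAC-4w, and its TAC-6w ratio to sham was 0.600. The makeup of these cells differed between sham and the TAC libraries. The cluster led by Ngp and Ltf was 10 of the 145 neutrophil-like cells in sham and 12 of 70 in TAC-2w. It was 228 of 1254 in TAC-4w, at 232 CPM, and 31 of 194 in TAC-6w. In the other neutrophil-like cluster Ccl4 was 1254, 774, 1450 and 1263 CPM, and TAC-4w was the highest.

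Ccl3 had 702, 880, 511 and 1205 CPM in macrophage-like cells and 1189, 1441, 263 and 378 CPM in NK cell-like cells. Without the sub-cluster led by mast cell genes, macrophage-like cells of TAC-6w had 829 CPM of Ccl3 and 1490 CPM of Ccl4. Among macrophage sub-clusters, Ccl4 was highest in the one led by Il1b, Nlrp3 and Tnip3, inflammatory genes, at 2816 CPM in sham against 339 CPM in the Ccl8-high resident sub-cluster. In TAC-4w a mixed sub-cluster led by the basophil genes Mcpt8 and Prss34, with 20 cells there, had 29726 CPM of Ccl4. The mixed sub-clusters held 45.3% of the Ccl3 UMIs and 31.3% of the Ccl4 UMIs of that library, and neutrophil-like cells a further 24.9% and 37.2%.

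Both genes had few UMIs in tissue. Ccl3 had 3, 2, 27 and 13 UMIs in the sections, or 0.115, 0.0410, 0.845 and 0.269 CPM, and Ccl4 had 7, 14, 57 and 43 UMIs, or 0.269, 0.287, 1.78 and 0.890 CPM. Per C1q UMI, macrophage-like cells had 51.3 (24.9 to 128) times the Ccl4 of the section in sham, 54.5 (32.5 to 99.7) times in TAC-2w, 24.5 (18.8 to 32.5) times in TAC-4w and 42.8 (31.8 to 59.2) times in TAC-6w. For Ccl3 the factors were 73.5, 234, 43.8 and 83.97, on few section UMIs. By the same measure Ccl6 was at 0.552 to 1.74, Ccl9 at 0.491 to 1.55 and Ccl24 at 0.385 to 1.43, so that for these the macrophage-like cells and the tissue differed by less than 3-fold. With the UMIs of all cells kept in place of macrophage-like cells, Ccl6 was at 6.43 (6.11 to 6.76), Ccl4 at 181 and Ccl3 at 192 in TAC-4w. Ccl2 was at 3.74 to 12.0, Ccl7 at 2.46 to 10.4 and Ccl12 at 1.82 to 6.93. Ccr2 was at 0.397 to 0.554 in sham, TAC-2w and TAC-6w and at 15.4 (12.6 to 19.1) in TAC-4w. The C1q level of macrophage-like cells was itself lowest in TAC-4w. C1q took 203876 of 11873671 UMIs in sham, 253631 of 14704737 in TAC-2w, 17167 of 3006179 in TAC-4w and 57332 of 3524218 in TAC-6w. The TAC-4w factors of macrophage-like cells therefore include this lower C1q level. Per C1q UMI, Ccl2, Ccl3, Ccl4, Ccl6, Ccl7, Ccl9 and Ccr2 were higher in TAC-4w than in sham macrophage-like cells. Ccl8, Ccl12 and Ccl24 were lower. Ccl2 was 45.8 per 1000 C1q UMIs in sham and 96.6 in TAC-4w, while its CPM was lower in TAC-4w. The 13 handling and stress genes (Fos, Egr1, Atf3, Hspa1a and others), none at 0, summed to 20795, 23747, 12259 and 25399 CPM in macrophage-like cells and to 146, 131, 232 and 192 CPM in the sections. Their part in the difference between cells and tissue was not tested.

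**Figure D4:**
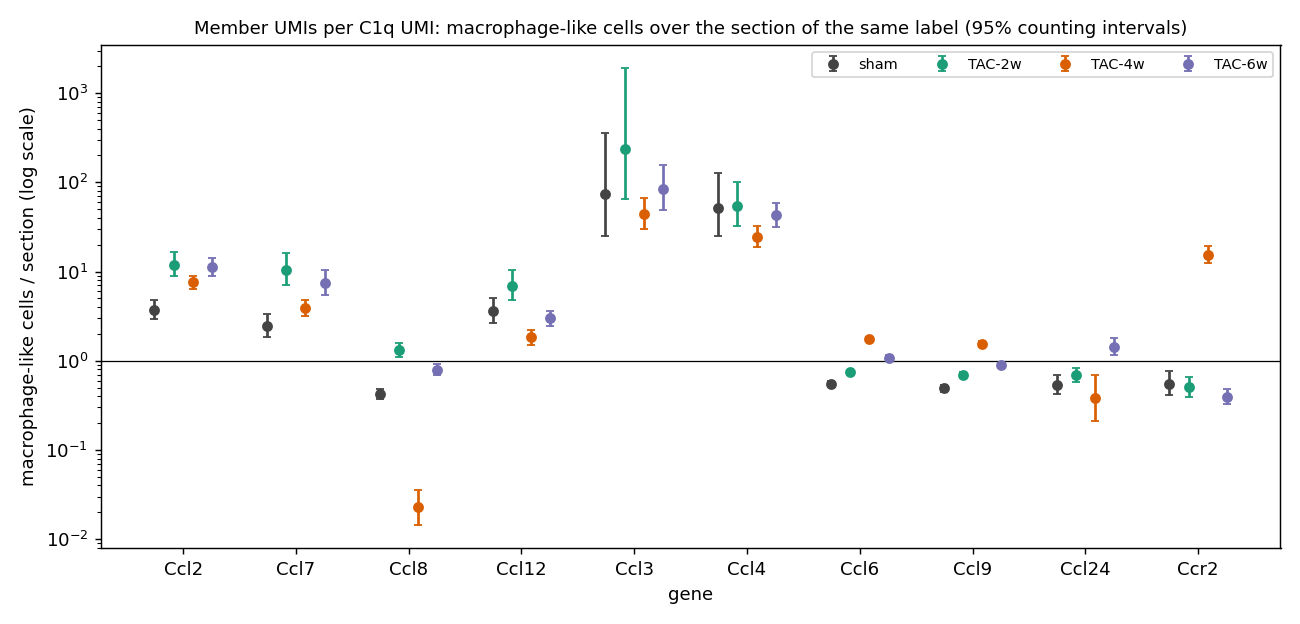
UMIs of each member per UMI of C1qa, C1qb and C1qc in macrophage-like cells, divided by the same value in the section with the same label (log axis, 95% counting intervals). Ccl3 and Ccl4 lie at 24.5 or more in all 4 pairs, and Ccl8 runs from 0.0232 in TAC-4w to 1.32 in TAC-2w. The C1q level of the macrophage-like cells was lowest in TAC-4w.

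Ccl6 and Ccl9, relatives that attract myeloid cells through Ccr1, kept within 2-fold of sham in macrophage-like cells and in the sections at all 3 times. Ccl6 in resident macrophage-like cells was 2884 CPM in sham, 2756 in TAC-2w, 3419 in TAC-4w and 3529 in TAC-6w. In neutrophil-like cells it was 1802, 1487, 1741 and 1780 CPM. Both cell types kept within 1.5-fold of sham in every library, TAC-4w included, where 246 Ccl6 UMIs were counted in the 7 resident macrophage-like cells in which Ccl8 had 2. The neutrophil-like cluster led by Acod1 and Il1r2 had 2516 CPM in TAC-4w, and the one led by Ngp and Ltf, genes of immature neutrophils, had 646 CPM.

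Ccl9 separated from Ccl6 in neutrophils. It was 1345, 1173, 1696 and 1386 CPM in resident macrophage-like cells but 31.0, 14.7, 12.1 and 18.6 CPM in neutrophil-like cells. Across all macrophage-like cells Ccl6 was 1934, 2004, 1277 and 1938 CPM and Ccl9 was 930, 877, 628 and 820 CPM. In the sections Ccl6 was 42.3, 29.4, 53.1 and 33.4 CPM and Ccl9 was 22.8, 13.99, 29.3 and 17.3 CPM.

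Ccl24, which attracts eosinophils, was also higher in resident than in other macrophage-like cells. Resident macrophage-like cells had 200 CPM in sham, 245 in TAC-2w, 41.7 in TAC-4w (3 UMIs) and 348 in TAC-6w. Other macrophage-like cells had 61.1, 53.2, 14.9 and 115 CPM. The TAC-4w to sham ratio in macrophage-like cells was 0.0526 (0.0316 to 0.0824), and in other macrophage-like cells alone 0.244 (0.132 to 0.414). Here cells and tissue had the same direction: the sections had 2.69, 2.46, 1.19 and 2.01 CPM, and the TAC-4w ratio was 0.442 (0.290 to 0.665), with 0.221 per C1q UMI. Ccl8 and Ccl24 thus lay on opposite sides of sham in the TAC-4w section by total UMIs, and a test of that difference was not possible.

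Ccr2, the receptor, was the member that was higher in TAC-4w macrophage-like cells. It was 83.0 CPM in sham, 63.3 in TAC-2w, 646 in TAC-4w and 77.2 in TAC-6w, a TAC-4w ratio of 7.78 (7.20 to 8.41). Classical monocyte-like cells had 526, 612, 992 and 279 CPM and resident macrophage-like cells 37.0, 21.8, 125 (9 UMIs) and 13.5 CPM. Other macrophage-like cells had 91.3, 72.1, 180 and 81.7 CPM, and there the TAC-4w ratio was 1.97 (1.65 to 2.34), no longer past 2-fold. Without the sub-cluster led by mast cell genes, which had 55.7 CPM at TAC-6w, the other macrophage-like cells of TAC-6w had 150 CPM (123 to 181) and a ratio to sham of 1.65 (1.33 to 2.03). All macrophage-like cells of TAC-6w then had 103 CPM, a ratio to sham of 1.25 (1.05 to 1.47). The share of macrophage-like cells with a Ccr2 UMI was 13.6%, 10.4%, 54.1% and 13%, and 6.24%, 4.59%, 31.1% and 5.14% after thinning, against 0%, 0%, 0.535% and 0.109% unthinned in B cell-like cells. NK cell-like cells (294, 522, 226 and 108 CPM) and T cell-like cells (260, 216, 211 and 166 CPM) also had Ccr2. The TAC-6w value of NK cell-like cells came from 29 cells with 55563 UMIs of all genes. In the sections it was 1.81, 1.37, 3.04 and 3.64 CPM, and TAC-6w was 2.02 (1.45 to 2.84) times sham, or 1.66 with TMM scaling.

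Taking the members as a list, 0 of 10 were past 2-fold of sham in macrophage-like cells of TAC-2w, where 0.162% of 9850 genes were past 2-fold higher and 0.203% lower. At TAC-6w 0 of 10 were past it, against 0.994% higher and 3.97% lower. At TAC-4w 3 of 10 were lower (Ccl8, Ccl12 and Ccl24), where 9.2% of 9406 genes were lower, and 1 was higher (Ccr2), where 4.69% were. Calls needed a sum of 50 UMIs in either library. The median log2 ratio of all genes was -0.02 at TAC-4w, and that of the members was -0.76. In other macrophage-like cells alone, a choice made after seeing the data, 3 of 10 were lower at TAC-4w (Ccl2, Ccl8 and Ccl24), where 4.31% of genes were lower, and 0 were higher, where 1.76% were. Without the sub-cluster led by mast cell genes Ccl2 was within 2-fold there, at a ratio of 0.527 (0.468 to 0.591) against 0.487 with it, and 2 were lower. None was past 2-fold there at TAC-2w (0.125% of genes higher, 0.188% lower) or TAC-6w (1.15% higher, 3.93% lower). The makeup of the other macrophage-like cells differed between sham and TAC-4w, as given above, and its part in these counts was not tested. All comparisons share the sham sample.

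In fibroblast-like cells 8 members reached 50 UMIs. Ccl2 was lower at TAC-2w, where 0.456% of genes were. Ccl7, Ccl8 and Ccl12 were lower at TAC-4w, where 4.03% were, and Ccl4 and Ccl12 at TAC-6w, where 4.75% were. None was higher, with 0.4%, 5.52% and 2.04% of genes higher at the same times. The CPM of Ccl4, Ccl8 and Ccl12 in these cells did not exceed 9.81, and C1q transcripts, at 49.4, 52.0, 5.58 and 27.3 CPM in fibroblast-like cells, were also lowest in TAC-4w. Their part in these values was not tested. The mix of fibroblast clusters also differed at TAC-4w, as given above, and its part was not tested. Within the cluster led by Cxcl14, Scara5 and Pi16, Ccl7 was 114 CPM in sham and 92.8 CPM in TAC-4w, within 2-fold. Ccl8 and Ccl12 had 6 and 1 UMIs in that cluster at TAC-4w. The Ccl2 difference at TAC-2w was past 2-fold in that cluster but not in the one led by Wif1 and Chad.

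In the sections, 2 of 6 members with 50 UMIs were lower at TAC-2w (Ccl2 and Ccl8), where 0.587% of 11423 genes were lower and 0.657% higher. At TAC-4w 5 of 9 were higher (Ccl2, Ccl4, Ccl7, Ccl8 and Ccl12), where 5.28% of genes were, and 1 was lower (Ccl24), where 0.776% were. At TAC-6w 1 of 7 was higher (Ccr2), where 4.66% were, and none lower, where 0.251% were. The median log2 ratio of all genes was 0.05, 0.22 and 0.30 at TAC-2w, TAC-4w and TAC-6w. Mitochondrial and rRNA-like features took 51.8% of the UMIs of the sham section and 42.4% to 44.4% of the others, and with them left out of the total the medians were -0.18, -0.04 and 0.10. Relative to that median, the TAC-4w log2 ratios were 2.51 for Ccl4, 1.51 for Ccl12, 0.89 for Ccl8, 0.84 for Ccl2 and 0.79 for Ccl7.

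**Figure D5:**
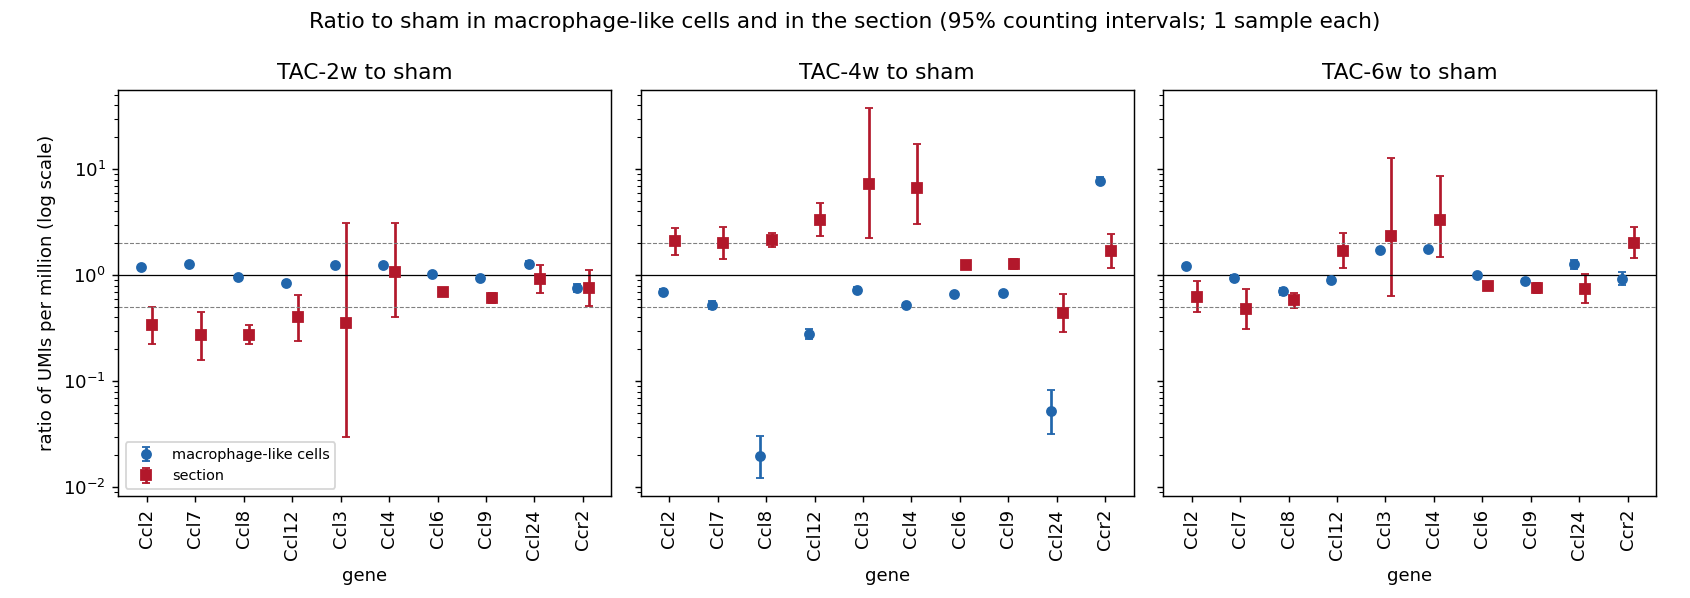
Ratio of CPM to sham (log axis) for each member in macrophage-like cells (circles) and in the section (squares), with 95% counting intervals and dashed lines at 2-fold. At TAC-4w Ccl8 lies at 0.0198 in the cells and 2.15 in the section, and Ccl12 at 0.279 and 3.32, while the TAC-2w and TAC-6w cells keep within 2-fold of sham.

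Macrophage-rich spots held more of Ccl6, Ccl8 and Ccl9 in every section. With at least 50 UMIs in the section, 3 of 5 members were past 2-fold higher there in sham, where 4.28% of genes were, 5 of 5 in TAC-2w (2.25% of genes), 3 of 8 in TAC-4w (3.34%) and 5 of 7 in TAC-6w (2.34%). The ratio was 2.27 to 3.10 for Ccl6 and 2.58 to 3.12 for Ccl9 over the 4 sections. For Ccr2 it was 1.73 (0.734 to 3.63) in sham, 2.91 (1.57 to 5.13) in TAC-2w, 0.991 (0.477 to 1.86) in TAC-4w and 1.35 in TAC-6w. Median depth was 20163 UMIs in the macrophage-rich spots and 14996.5 in the others in sham, and 13959 and 20807 in TAC-6w. The TAC-4w spots rich in macrophage markers thus held more Ccl8 but not measurably more Ccr2 than the others. Those of sham likewise had no measurable excess of Ccr2.

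Of the 24 other CC ligands and receptors listed, 19 had at least 50 UMIs in a library and Ccl20 had none. Ccl5, made by cytotoxic lymphocytes, was 31268 CPM in sham NK cell-like cells and 19536 to 29912 CPM in the TAC libraries. Ccr1 was 1204, 1326, 975 and 575 CPM in neutrophil-like cells. Ccr3, the receptor for Ccl24, had 5, 10, 17 and 1 UMIs in all cells kept and is named after its values were seen. Others with at least 50 UMIs were Ccl1, Ccl11, Ccl17, Ccl19, Ccl21a, Ccl22, Ccl25, Ccl27a, Ccr6, Ccr7, Ccr9, Ccr10, Ccrl2, Ackr1, Ackr2 and Ackr4. Among them Ccl11, Ackr2 and Ackr4 had 58.0, 50.8 and 48.7 CPM in sham fibroblast-like cells.

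Over 44 sums of a cell type and a library with at least 50 cells, Pearson's r of log2(CPM + 1) was 0.93 for the neighbours Ccl2 and Ccl7, 0.93 for Ccl3 and Ccl4, 0.85 for Ccl6 and Ccl9 and 0.82 for Ccl8 and Ccl12. It was also high for members on different chromosomes, at 0.89 for Ccl12 and Ccl24 and 0.86 for Ccl8 and Ccl24, and it was lowest for Ccl8 and Ccr2, at 0.22. These points share libraries and are a description. Among 14789 other genes, the most alike were Timd4, Fcna and Pla2g2d for Ccl8 (0.86, 0.85 and 0.84) and Asgr2, Nxpe5 and Vsig4 for Ccl24 (0.91, 0.91 and 0.90). For Ccl12 they were Nxpe5, Vsig4 and Slc13a3 (0.92, 0.91 and 0.90). Pid1 and Rab7b were near to Ccl2 (0.93 and 0.92) and Abca9, Rab7b and Ifi207 nearest to Ccl7 (0.92, 0.91 and 0.90). Ccl3 was nearest to Myo1f, Lilrb4a and Tyrobp (0.91, 0.90 and 0.90) and Ccl4 to Rgs1, Gpr65 and Sema4a (0.93, 0.92 and 0.91). For Ccl6 the nearest were Cd14, Clec5a and Cd300c2 (0.96 each), for Ccl9 Fcgr1, Ms4a6d and Adgre1 (0.94, 0.93 and 0.93), and for Ccr2 Padi2, Otulinl and Dok2 (0.88, 0.86 and 0.85).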

How the data were processed

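The deposited values were UMI counts per gene and barcode, made by the authors with Cell Ranger 7.0.0 (libraries) and Space Ranger 1.3.1 (sections) on mm10, as their processing notes give it. The matrix headers name Cell Ranger 6.0.0 and Space Ranger 1.2.0, and the study's methods another Cell Ranger version. Labels describe nuclei and the study's methods whole cells. Libraries were split by condition in the labels. Cells with 200 to 6000 genes, 500 to 30000 UMIs and under 15% mitochondrial UMIs were kept, and the 3.2% with the highest scanpy 1.11.5 Scrublet score removed. Cells were clustered in Seurat 5.3.0 (3000 variable genes, 30 components, resolution 0.25; macrophages again with 2000, 20 and 0.5) without the 34 chemokine and receptor genes and named from 17 lists of 6 markers. Levels are summed UMIs per 1000000 UMIs (CPM), with exact Poisson, conditional binomial or Clopper-Pearson 95% intervals, which cover counting error only, and floors are 3 counts. The ratio and call rule were run on simulated Poisson sums. These leave out the unevenness of UMIs between cells and differences between animals, so the run cannot show how the intervals hold for these data. Cells are not replicates and no test between groups was possible. Named genes were the members, listed relatives with 50 UMIs, and the 3 most alike genes among those with 100 UMIs; fibroblast, neutrophil and macrophage clusters are named by leading genes. The members and lists were chosen with earlier results of these data known. A macrophage sub-cluster took a sub-class name at a marker score of 1.5, and 1 sub-cluster of 396 cells, nearest to resident but below it, stayed with the other macrophages. Spatial image files were not used. Alternatives changed filters, integration, naming, call minimum and scaling (TMM factors from edgeR 4.0.16). The 1.5 score, the mixed class and its basophil list, leaving out the sub-cluster led by mast cell genes, and other macrophage-like cells alone, were chosen after seeing the data. Some genes that these rules name are not reported here.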

Additional observations from a re-analysis of the deposited data

Results flagged for a closer look

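Ccl8 and Ccl12 moved past 2-fold in opposite directions in the same contrast, TAC-4w to sham, depending on the assay. For Ccl8 the ratio was 0.0198 in macrophage-like cells and 2.15 in the section. For Ccl12 it was 0.279 in macrophage-like cells and 3.32 in the section. The difference between the assays was not tested, since each has 1 sample per condition. For Ccl8 the section ratio was under 2-fold, at 1.80 and 1.87, with mitochondrial and rRNA-like features left out or TMM scaling, and stayed above 1. Per C1q UMI, a scaling chosen after seeing the data, it was 1.08 for Ccl8 and 1.66 for Ccl12, neither past 2-fold. In macrophage-like cells Ccl8 was 20.5 per 1000 C1q UMIs in sham and 1.22 in TAC-4w. Ccl12 was 26.8 and 22.5 there, so that it was within 2-fold on that scale. Of the 362 macrophage-like cells of TAC-4w, 163 were classical monocyte-like and 7 resident, against 42 and 605 of 1593 in sham.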

How the results depend on the processing

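The Ccl8 ratio of TAC-4w to sham in macrophage-like cells, 0.0198, stayed below 1 under every alternative run. It was 0.00453 with a mitochondrial limit of 5%, 0.00176 with RPCA integration, 0.00171 with the chemokine genes kept for clustering, and 0.0587 without the monocyte-like clusters. Counts of members past 2-fold in macrophage-like cells moved to 5 lower at TAC-4w with no filter on cells or with each cell named by its own marker score, to 1 higher at TAC-6w (Ccl4) with the 5% limit, and to 0 higher at TAC-4w in other macrophage-like cells alone, with or without the sub-cluster led by mast cell genes, alternatives chosen after seeing the data. With the 5% limit 6 of 10 members kept their leading cell type at TAC-4w. In fibroblast-like cells the counts were 2 lower at TAC-2w and 8 at TAC-4w with no doublets removed, 4 lower at TAC-6w with no filter, and 1 higher at TAC-4w (Ccr2) with a minimum of 10 UMIs or none. In the sections, members higher at TAC-4w were 2 with TMM or without mitochondrial and rRNA-like features and 1 per C1q UMI, a scaling chosen after seeing the data. Members higher at TAC-6w were 0 with each of these scalings, 2 with the mean of spot CPM, and 3 with a minimum of 10 UMIs or none. Members lower at TAC-6w were 1 with TMM (Ccl8), 1 with a minimum of 10 UMIs or none (Ccl7), and 2 per C1q UMI. Members lower at TAC-2w were 4 with a minimum of 10 UMIs and 5 with none. In the top 5% of spots 5 members were higher at TAC-4w. After thinning, the share of macrophage-like cells with a Ccl8 UMI was 8.60%, 8.86% and 7.66% in sham, TAC-2w and TAC-6w, and that with a Ccr2 UMI 6.24%, 4.59%, 31.1% and 5.14% in sham and the TAC libraries by week. Of 291 values under alternatives, 253 stayed near the reported ones and 38 moved, and the cause was not tested. With 1 sample per group no replicate could be left out. No paired analysis was possible because each group has 1 library and 1 section.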

Other observations

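The dividing cells, kept apart above, had lower summed levels of the ligands at TAC-4w. Their cluster was named from division markers, with the macrophage list second. Its mix of cell lineages in each library was not examined, so the part of that mix in these values was not tested. Ccl8 was 87.6 CPM in dividing cell-like cells of sham, 65.8 in TAC-2w, 0 UMIs in TAC-4w and 7.40 CPM in TAC-6w, and Ccl12 was 198, 206, 0 UMIs and 29.6 CPM. Ccr2 was 265, 257, 322 and 202 CPM in the same cells. At TAC-4w 9 of 10 members, all but Ccr2, were past 2-fold lower there, where 11.2% of genes were lower.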
